A study of Arabidopsis thaliana with 8 samples.

Results

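The genes described here are those whose RNA level differed from wild type in scs1-scs2a seedlings but stayed near wild type in hag1 and ada2b seedlings. They number 44 of the 32548 genes in the expression table, 37 higher in scs1-scs2a (raised members) and 7 lower (lowered members). Grouped by product names and known roles after their values were seen, the raised members were 8 root hair and cell wall genes, 7 kinases, 6 defence-linked genes, 6 transport, lipid and P450 genes, and 10 others. Members were chosen by their measured values in all 8 libraries. For each mutant, L is the log2 ratio of the mutant mean to the Col-0 mean of the normalised counts, with 1 added to both means. A member has an L of 0.7 or more, or -0.7 or less, in scs1-scs2a, an L between -0.4 and 0.4 in both hag1 and ada2b, and a mean of 50 or more in at least one genotype. Because these values chose the members, the levels and L values below describe them and are given without a test.

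RNA sequencing was done on total RNA from seedlings at 12 days of age, grown on plates. The groups were scs1-scs2a, a double mutant, hag1, ada2b, and the wild type Col-0, with 2 libraries each. All plants shared the same growth conditions. The labels give no alleles and do not state that replicate libraries are separate cultures, so p-values measure only the spread between these libraries, which may be technical. HAG1 stood at 345 and 345 normalised counts in scs1-scs2a, 131 and 133 in hag1, 394 and 436 in ada2b, against 296 and 328 in Col-0. ADA2B stood at 567 and 613 in ada2b against 708 and 712 in Col-0, so transcript from the mutated gene remained in both mutants. No value is given here for SCS1 or SCS2A, which the reference does not list under these names. Totals ran from 20570967 to 22344725 normalised counts per library.

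SAGA is a coactivator complex that acts on chromatin at gene promoters. Its HAG1 subunit, the plant GCN5, acetylates histone H3, ADA2B is the adaptor that holds HAG1 in the complex and raises its activity, and another module removes ubiquitin from histone H2B. Root hairs are tube-shaped outgrowths of root epidermal cells that take up water and phosphate. They elongate under the control of a transcription factor cascade and build a wall rich in extensins, which peroxidases cross-link. Receptor kinases of the plasma membrane sense microbial molecules and damage, and WRKY transcription factors, which bind the W-box, act downstream of many of them.

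Few of the genes that differed in scs1-scs2a were members. Of 19081 genes with a mean of 50 or more in some genotype, 495 had an L of 0.7 or more in scs1-scs2a. The raised members are 37 of these, or 7.47%. Another 438 were also above 0.4 in hag1 or ada2b, 301 of them in both, and the remaining 20 were above 0.4 in neither and below -0.4 in one or both. On the lower side, 954 genes had an L of -0.7 or less, and the lowered members are 7 of these, or 0.734%. Of the 954 genes, 937 were also below -0.4 in hag1 or ada2b, 791 of them in both.

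**Figure D1:**
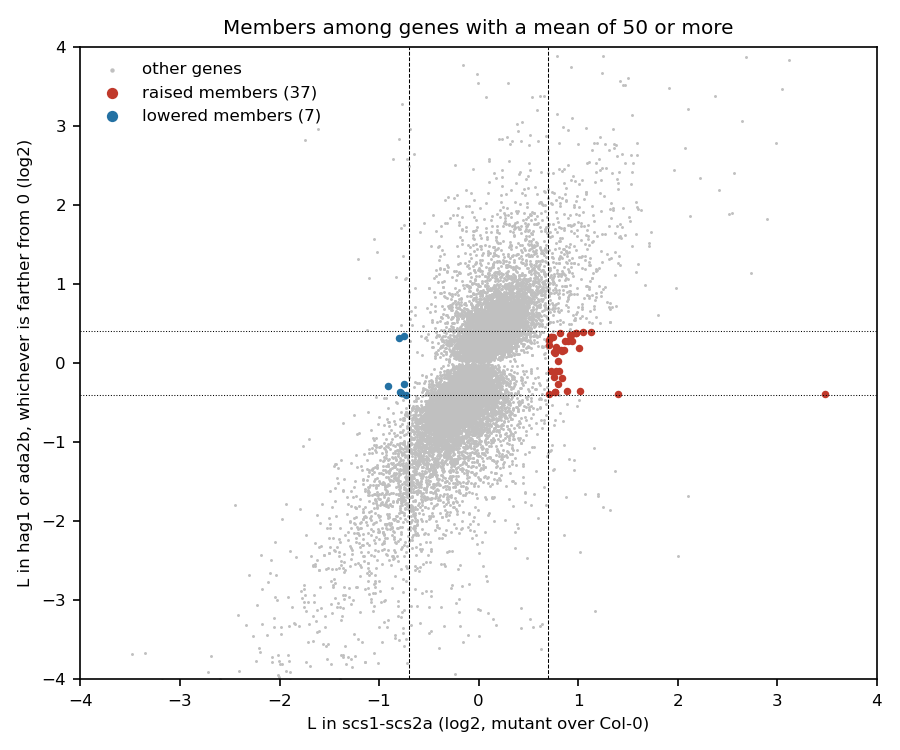
Each point is 1 of the 19081 genes with a mean of 50 or more, with its L in scs1-scs2a on the horizontal axis and its L in hag1 or ada2b, whichever is farther from 0, on the vertical axis (both log2). The 72 genes beyond 4 on either axis are not drawn. The 37 raised (red) and 7 lowered (blue) members occupy the 2 strips outside 0.7 and -0.7 (dashed) and inside 0.4 and -0.4 (dotted), beside a main cloud that runs from lower left to upper right.

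Among raised members, L in scs1-scs2a ran from 0.70 to 3.48 with a median of 0.82. Their median L was -0.01 in hag1 and 0.10 in ada2b. By library, the median log2 ratio to the Col-0 mean was 0.79 and 0.90 in scs1-scs2a, 0.19 and -0.27 in hag1, 0.27 and 0.06 in ada2b, against -0.03 and 0.03 in Col-0. Both scs1-scs2a libraries were above all 6 other libraries for 33 of the 37, a pattern found for 3.38% of the 25459 genes tested. The 4 exceptions were TAT3, AT3G19430, RSL4 and PERK13. The rule itself favours this pattern, so nothing is read from its count among members. The hag1 mean of many members averages a higher and a lower library: replicate 1 exceeded replicate 2 for 32 of the 37, against 49.3% of the 19081 genes. In ada2b this held for 25 of the 37 members, against 50.7% of the 19081 genes.

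Calls by limma, at a Benjamini-Hochberg adjusted p of 0.05 over all 25459 genes, were counted beside the share of all genes called. The rule used the same contrasts, so nothing is read from the members' counts. Of the 37 raised members, 23 were called higher in scs1-scs2a than in Col-0 (7.86% of all genes), 23 higher than in hag1 (15.2%), and 18 higher than in ada2b (14.8%). All 3 contrasts called 14 of them (0.326%). Against Col-0, 1 raised member was called in hag1 (44.3% of all genes) and 0 in ada2b (48.1%). The member called in hag1 was AT4G30670, a putative membrane lipoprotein. With median-ratio scaling, 60.3% of the genes called between scs1-scs2a and ada2b were higher in scs1-scs2a, against 49.9% with the deposited scaling.

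**Figure D2:**
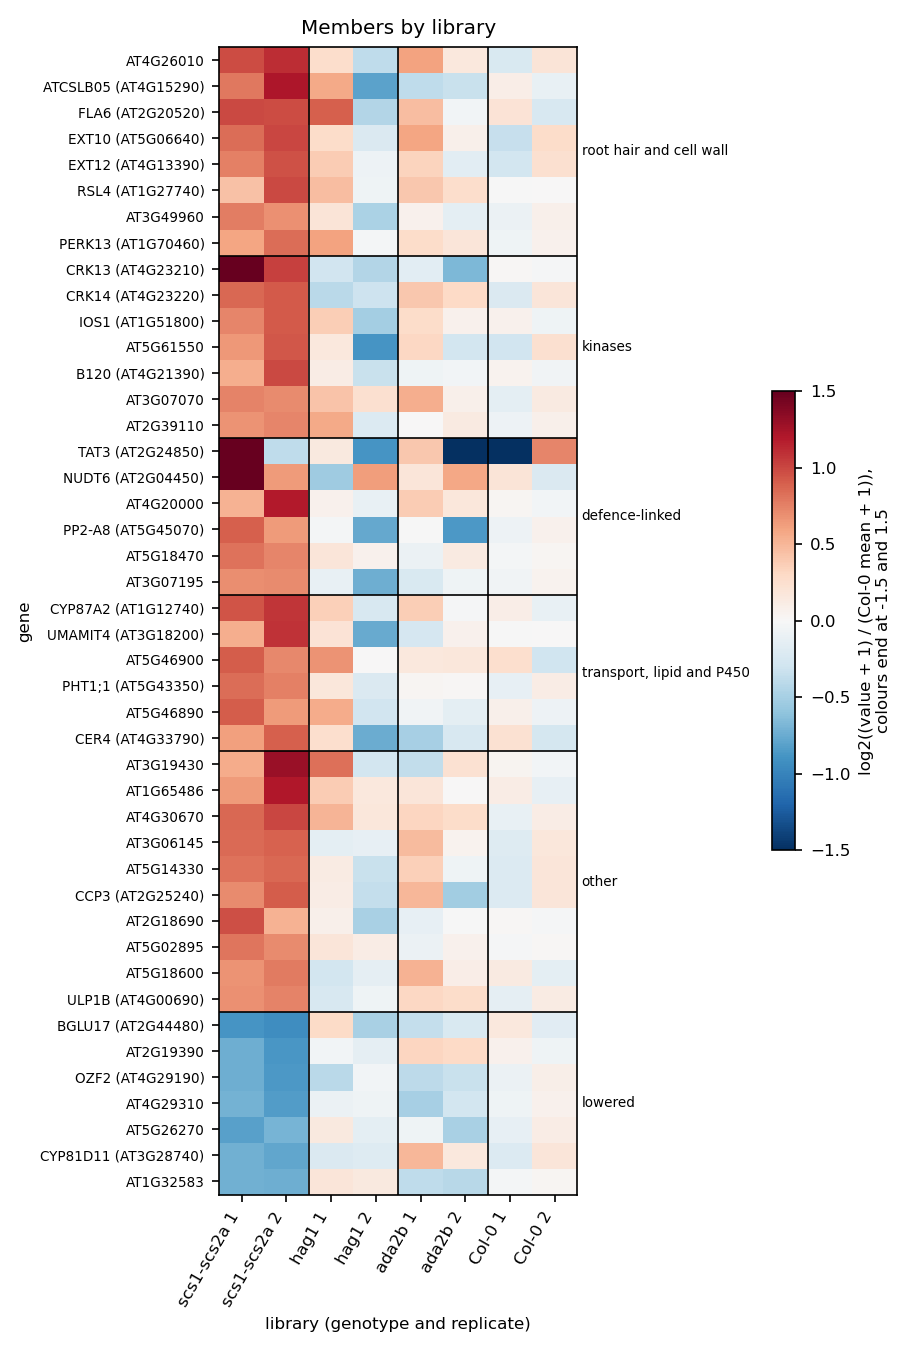
Rows are the 44 members in the role groups used below, and columns are the 8 libraries. Colour is the log2 ratio of the library to the Col-0 mean, with 1 added to both, red above and blue below, ending at 1.5 and -1.5. The 2 scs1-scs2a columns are red for raised and blue for lowered members, except TAT3 in replicate 2, while hag1 replicate 2 is bluer than hag1 replicate 1 across most raised rows.

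Sequence near the start of transcription was not used to choose the members. The W-box (TTGACC or TTGACT on either strand) lay within 250 bases before to 50 bases after the annotated start in 20 of the 37 raised members, or 54.1%. The share was 32.2% among genes with a mean of 50 or more and 31.8% among all promoters. By role it was in 5 of 7 kinase genes, 4 of 6 defence-linked genes and 8 of 10 other genes, but in 2 of 8 root hair and wall genes, 1 of 6 transport and lipid genes, and 2 of 7 lowered members. The highest share was thus in the other genes, and the role groups were made after the values were seen. Only matches in kinase and defence-linked genes, where WRKY factors are best known, are printed below with up to 20 bases on each side. They were read from the RefSeq annotation of TAIR10.1, 5′ to 3′ on the strand of the gene, with the W-box or its reverse complement in capitals.
IOS1 (chr1:19214014-19214059, plus strand): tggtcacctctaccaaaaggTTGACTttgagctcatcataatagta
CRK14 (chr4:12157014-12157083, minus strand): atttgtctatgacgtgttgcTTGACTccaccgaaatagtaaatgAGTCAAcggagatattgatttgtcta
B120 (chr4:11397729-11397774, minus strand): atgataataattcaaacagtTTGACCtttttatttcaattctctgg
AT2G39110 (chr2:16319336-16319381, plus strand): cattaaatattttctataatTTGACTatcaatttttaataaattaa
AT5G61550 (chr5:24747817-24747862, plus strand): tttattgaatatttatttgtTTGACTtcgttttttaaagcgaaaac
TAT3 (chr2:10585235-10585280, minus strand): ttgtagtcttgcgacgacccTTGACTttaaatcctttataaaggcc
NUDT6 (chr2:1543242-1543287, plus strand): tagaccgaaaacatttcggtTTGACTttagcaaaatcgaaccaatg
PP2-A8 (chr5:18189585-18189630, minus strand): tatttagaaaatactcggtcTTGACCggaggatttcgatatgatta
AT4G20000 (chr4:10838210-10838255, plus strand): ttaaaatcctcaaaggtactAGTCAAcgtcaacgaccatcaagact

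CRK14 holds both orientations of the motif, and its match starts lie 182 and 158 bases before the start site. The single match starts 38 bases before the start in IOS1, 44 in TAT3, 28 in B120 and 58 in NUDT6. Of the 27 W-box matches in raised members, 1 overlapped another motif searched. A match is a description of letters and does not show binding.

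Among the other 10 motifs fixed for the search, the heat shock element GAANNTTC was in 8 raised members (21.6%, against 11.2% of genes with a mean of 50 or more), TATAAA in 23 (62.2% against 50.2%) and the I-box GATAAG in 8 (21.6% against 15.0%). The G-box CACGTG was in 0 (against 8.45%), site II TGGGCC in 3 (8.11% against 19.0%), CCGAC in 3 (8.11% against 16.2%) and GAGAGAGA in 1 (2.70% against 8.24%). ACGTGGC or ACGTGTC was in 2 (5.41% against 8.71%), AAAATATCT in 1 (2.70% against 2.93%) and AAACCCTAA in 1 (2.70% against 3.19%). All were searched on both strands. The root hair element, added later and named here only, was in 1 raised member, PERK13, against 0.750% of genes with a mean of 50 or more. It was also in 9 of the 25 other genes of the root hair list below. Many of those genes are named root hair specific, and whether the element had a part in their naming was not checked. Nothing is read from that share.

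The root hair and cell wall genes were 8 of the raised members, with a median L of 0.89 in scs1-scs2a. RSL4 is the basic helix-loop-helix factor that drives root hair elongation. It stood at 42.0 and 62.1 normalised counts in scs1-scs2a, 42.6 and 29.4 in hag1, 41.0 and 37.0 in ada2b, against 30.5 and 30.9 in Col-0. Both scs1-scs2a libraries were above Col-0, but the lower one was below the higher hag1 library. PERK13, annotated as root hair specific 10, is a proline-rich extensin-like receptor kinase that restrains root hair growth. Its levels were 144 and 170 in scs1-scs2a, 145 and 93.0 in hag1, 115 and 108 in ada2b, against 90.4 and 99.1 in Col-0. Here too hag1 replicate 1 overlapped with scs1-scs2a.

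The structural wall proteins were among the most abundant members. EXT10, an extensin, had 1762 and 1972 normalised counts in scs1-scs2a, 1193 and 845 in hag1, 1488 and 1036 in ada2b, against 773 and 1195 in Col-0. EXT12, a related extensin, had 626 and 722 in scs1-scs2a, 483 and 352 in hag1, 470 and 333 in ada2b, against 306 and 438 in Col-0. Both scs1-scs2a libraries were the highest of the 8 for each gene, while the Col-0 libraries were far apart. EXT10 shares 692 of its 2331 bases with AT5G06645 on the opposite strand, which had 592 and 635 in scs1-scs2a, 386 and 266 in hag1, 490 and 351 in ada2b, against 230 and 402 in Col-0. Use of strand is not given in the sources used here, so reads of this pair cannot be told apart. FLA6, a fasciclin-like arabinogalactan protein of the cell surface, had 56.5 and 56.2 in scs1-scs2a, 52.9 and 20.5 in hag1, 39.0 and 27.2 in ada2b, against 28.0 ± 6.25 in Col-0 (mean ± SD, n = 2).

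AT4G26010, a peroxidase, had 689 and 753 normalised counts in scs1-scs2a, 418 and 267 in hag1, 529 and 390 in ada2b, against 298 and 398 in Col-0. Its L was 1.05 in scs1-scs2a, -0.02 in hag1 and 0.40 in ada2b. It shares 74.5% of its bases with AT4G26020 on the opposite strand, whose values ran from 1.16 to 11.8 over the 8 libraries. AT3G49960, another peroxidase, had 464 and 439 in scs1-scs2a, 311 and 196 in hag1, 285 and 246 in ada2b, against 256 and 288 in Col-0. For both peroxidases no other library reached the scs1-scs2a values. ATCSLB05, of the cellulose synthase-like B family, had 66.9 and 89.8 in scs1-scs2a, 57.0 and 21.4 in hag1, 29.0 and 30.2 in ada2b, against 41.2 and 35.3 in Col-0. It shares 14.9% of its 50-base stretches with other genes, among them CSLB06, so reads may be split between them.

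All 12 extensin genes with a mean of 50 or more had an L above 0 in scs1-scs2a (9937 of the 19081 genes did). Their median was 0.68, against -0.01 in hag1 and 0.19 in ada2b, and 5 of them reached 0.7. EXT10 and EXT12, which the rule chose for an L of 0.7 or more, are among the 12 and the 5. The 48 class III peroxidases had a median L of 0.18, with 8 at 0.7 or more and 3 at -0.7 or less. The 8 include the members AT4G26010 and AT3G49960. Over all 19081 genes the median was 0.01. In the 18 genes of the cell wall expansion list, 5 were called higher and 8 lower in scs1-scs2a than in Col-0 (all genes 7.86% higher and 12.1% lower), with a median L of -0.12 and no member among them.

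A root hair list was made of 27 genes that the reference names root hair specific or root hair defective. Genes with RHD3, RL2 or PER1 among their names were left out of it. Of the 27 genes, 2 were members. In scs1-scs2a 25 of the 27 had an L above 0, and their median L was 0.72, against 0.32 in hag1 and 0.22 in ada2b. Of the 19 with a mean of 50 or more, 17 had an L above 0, against 9937 of the 19081 genes at that level. RSL4 and PERK13, the 2 members, are in these counts, and the rule itself placed their L at 0.7 or more. The median of the 27 is the value of PERK13. Both scs1-scs2a libraries were above all 6 others for 14 of the 27, against 3.38% of the genes tested. RHS16, a receptor kinase gene, had an L of 1.38 in scs1-scs2a, but was outside the members at 0.72 in hag1 and 0.51 in ada2b. PRP1, a proline-rich wall protein, had 1.34 in scs1-scs2a, with 0.57 in hag1 and 0.70 in ada2b. RHS19, annotated as root hair specific 19, had 1.21 in scs1-scs2a, with 0.36 in hag1 and 0.97 in ada2b. RSL2, a close relative of RSL4, had 34.5 and 36.2 normalised counts in scs1-scs2a, 15.6 and 12.7 in hag1, 12.0 and 11.7 in ada2b, against 14.1 and 13.9 in Col-0, and missed the level minimum. RHD6, which acts upstream of RSL4, had an L of 0.45 in scs1-scs2a. Summed over the 25 names that were not members, levels were 5915 and 6160 in scs1-scs2a, 5556 and 4494 in hag1, 5372 and 5038 in ada2b, against 4145 and 4364 in Col-0.

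**Figure D3:**
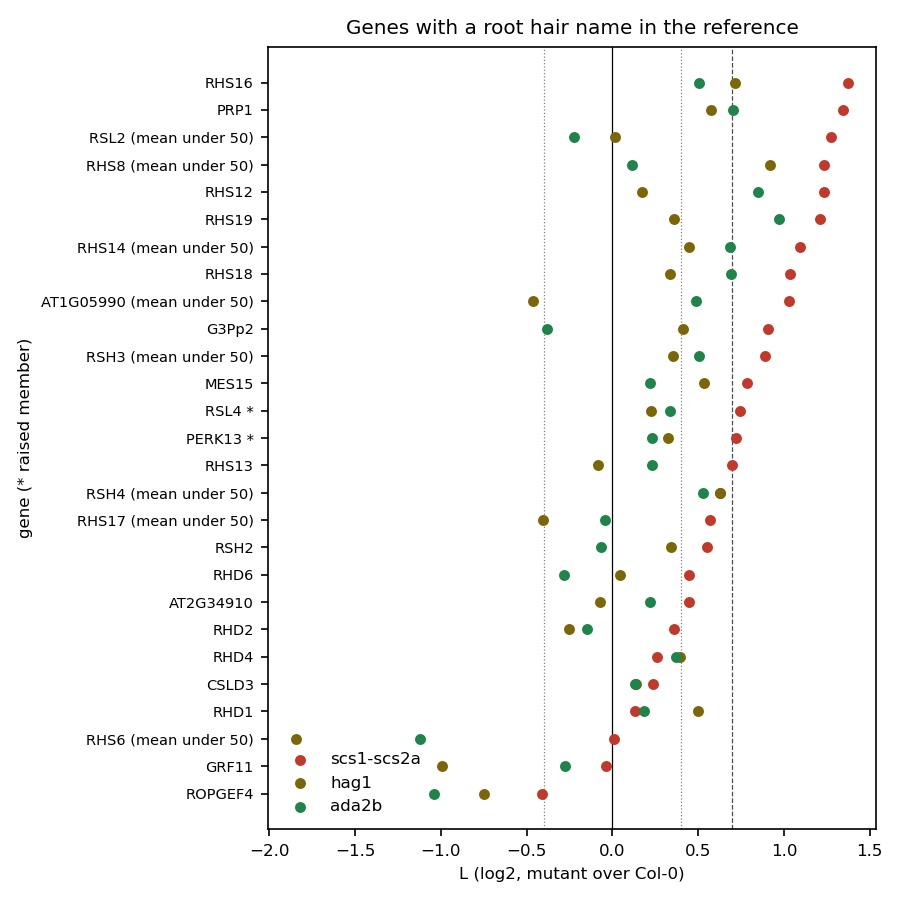
Each row is 1 of the 27 genes of the root hair list, and points give L (log2, mutant over Col-0) in scs1-scs2a, hag1 and ada2b. Dotted lines mark -0.4 and 0.4 and the dashed line 0.7. Red points lie right of 0 in 25 rows, and in most rows above the middle at least 1 other mutant lies beyond 0.4, which keeps the gene out of the members (stars mark RSL4 and PERK13).

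Whole seedlings were measured, so a change in the number of cells of a type and a change in RNA per cell cannot be told apart. Of 11 root markers, 1 was called higher (EXPA7, a root hair expansin) and 3 lower (PHO1, WOX5 and SCR) in scs1-scs2a than in Col-0, beside 7.86% higher and 12.1% lower among all genes, and none was at 0. Their summed level was 58470 to 59150 in scs1-scs2a, 66390 to 85840 in hag1, 51240 to 53810 in ada2b, and 46760 to 48140 in Col-0. The sum is weighted to the most abundant markers. The median L of the root markers was 0.18 in scs1-scs2a, but -0.25 in hag1 and -0.15 in ada2b. Of 8 shoot and leaf markers 0 were called higher and 3 lower, against the same shares of all genes, and their sum was 335100 to 367200 in scs1-scs2a, 303500 to 314300 in hag1, 401100 to 402700 in ada2b, and 442700 to 468400 in Col-0. Their part in the members' levels was not tested.

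Kinases formed the largest named family among the raised members. The product name held kinase or RLK in 7 of 37 (18.9%), against 1047 of the 19081 genes (5.49%). A search of product names can miss kinases in either set, as it missed the receptor kinase PERK13. The median L of the 1047 genes was -0.01, with 35 at 0.7 or more and 50 at -0.7 or less. Both scs1-scs2a libraries were above all 6 others for each of the 7 members (3.38% of the genes tested), a pattern that the rule favours.

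CRK13, a cysteine-rich receptor-like kinase known to raise resistance to bacteria when overexpressed, had the widest separation. It had 89.4 and 55.9 normalised counts in scs1-scs2a, 21.9 and 19.6 in hag1, 24.0 and 16.5 in ada2b, against 27.2 and 26.7 in Col-0. The lower scs1-scs2a library was 2.06 times the highest other library, and 14.2% of its 50-base stretches also occur elsewhere, among them in CRK22. CRK14, its neighbour on the same strand, had 109 and 114 in scs1-scs2a, 44.9 and 48.1 in hag1, 79.1 and 73.9 in ada2b, against 51.4 and 68.1 in Col-0. Other kinases of the same cluster were not members. CRK12, next to CRK13, had an L of 0.64 in scs1-scs2a and 1.39 in hag1. CRK11 had an L of 0.69 in scs1-scs2a, 0.68 in hag1 and 0.97 in ada2b. CRK16 was lower in every mutant, at -0.90 in scs1-scs2a, -0.79 in hag1 and -0.89 in ada2b. Of 26 genes of this kinase family, 6 had an L of 0.7 or more in scs1-scs2a and 2 had -0.7 or less. CRK13 and CRK14 are among the 6.

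IOS1, a leucine-rich repeat receptor kinase that promotes immunity triggered by microbial patterns, had 549 and 624 normalised counts in scs1-scs2a, 427 and 232 in hag1, 399 and 344 in ada2b, against 345 and 315 in Col-0. Its 2 hag1 libraries lay on either side of Col-0. B120, an S-locus lectin receptor kinase, had 119 and 163 in scs1-scs2a, 88.4 and 64.6 in hag1, 78.1 and 79.8 in ada2b, against 84.7 and 79.0 in Col-0. Apart from hag1 replicate 2, the other libraries lay close together. AT5G61550, a U-box kinase, had 46.8 and 57.3 in scs1-scs2a, 33.2 and 15.6 in hag1, 37.0 and 24.3 in ada2b, against 24.1 and 35.0 in Col-0. AT2G39110 and AT3G07070, of the kinase superfamily, had L values of 0.70 and 0.73 in scs1-scs2a.

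**Figure D4:**
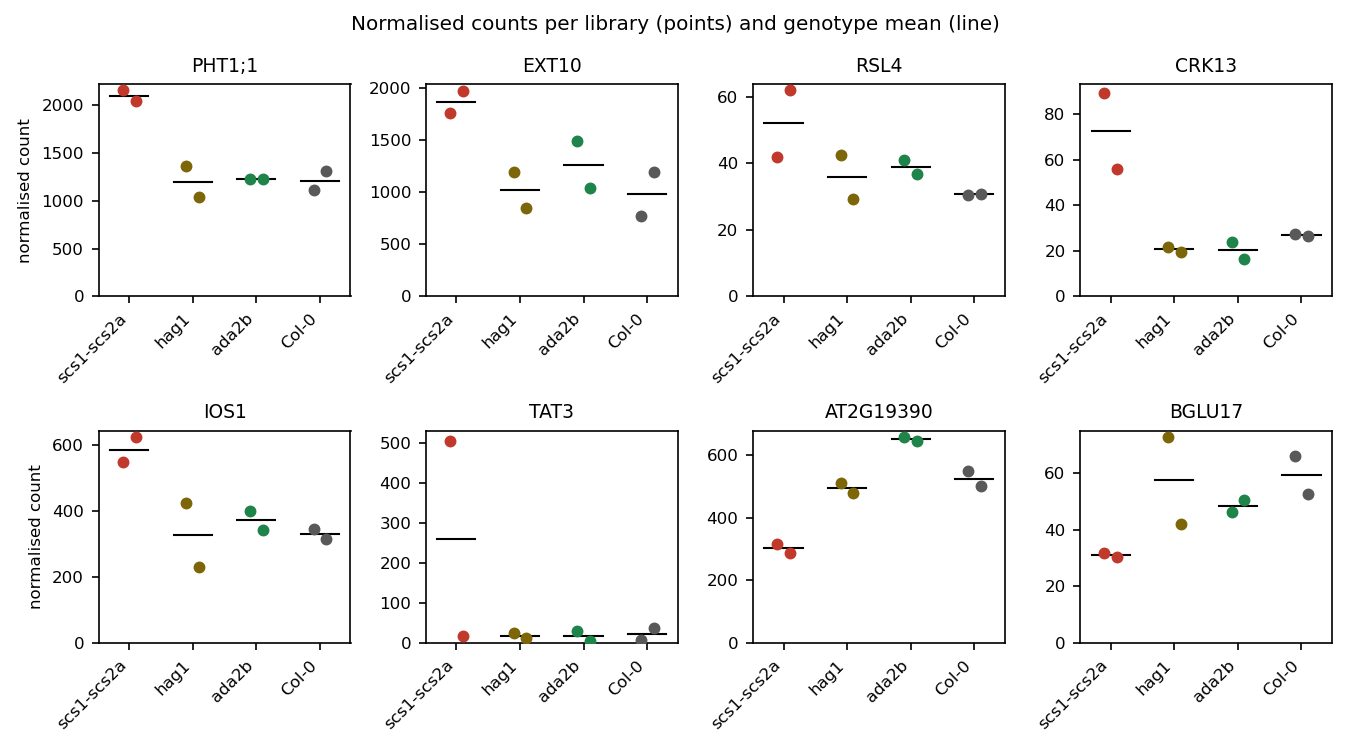
Points are the normalised counts of single libraries for 8 members and the line is the genotype mean, with each vertical axis starting at 0. PHT1;1 and CRK13 separate scs1-scs2a from all other libraries, RSL4 overlaps with hag1, TAT3 rests on 1 library at 506, and AT2G19390 and BGLU17 are lowest in scs1-scs2a.

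The defence-linked group held 6 genes with a median L of 0.83. NUDT6, a nudix hydrolase with a role in salicylic acid signalling, had 76.0 and 41.6 normalised counts in scs1-scs2a, 17.9 and 41.3 in hag1, 30.0 and 40.0 in ada2b, against 30.3 and 22.5 in Col-0. The lower scs1-scs2a library was 1.01 times the highest other library, so the groups nearly touch. AT3G07195, of the RIN4 family of immune regulators, had 136 and 137 in scs1-scs2a, 76.9 and 49.9 in hag1, 71.1 and 79.9 in ada2b, against 80.6 and 86.3 in Col-0. Here the gap was 1.58-fold.

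PP2-A8, of the phloem protein 2 family, had 297 and 248 normalised counts in scs1-scs2a, 156 and 92.9 in hag1, 159 and 87.3 in ada2b, against 151 and 167 in Col-0. AT4G20000, a protein with the VQ motif through which such proteins bind WRKY factors, had 47.7 and 76.5 in scs1-scs2a, 34.4 and 30.4 in hag1, 43.0 and 36.9 in ada2b, against 33.7 and 32.0 in Col-0. Both were above all other libraries in scs1-scs2a. TAT3, a tyrosine aminotransferase that responds to jasmonate, had 506 and 17.1 in scs1-scs2a, 24.9 and 11.7 in hag1, 30.0 and 3.76 in ada2b, against 7.02 and 37.9 in Col-0. Its L of 3.48, the highest of the 44 members, came from 1 library. Without scs1-scs2a replicate 1 the value was -0.38, and without Col-0 replicate 2 it was 5.03.

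AT5G18470, a mannose-binding lectin-like protein, had 279 and 263 normalised counts in scs1-scs2a, 180 and 166 in hag1, 149 and 173 in ada2b, against 155 and 162 in Col-0. AT5G02895, a non-coding RNA on the opposite strand that lies wholly within it, had 234 and 218 in scs1-scs2a, 151 and 144 in hag1, 125 and 140 in ada2b, against 132 and 135 in Col-0. The overlap covers 77.3% of AT5G18470 and the values ran in parallel in all libraries, so these 2 members may hold the same reads.

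The lists fixed for defence held few members. In the salicylic acid and defence list 2 of 22 genes were called higher (SARD1 and RLP23) and 0 lower in scs1-scs2a than in Col-0, where 7.86% of all genes were called higher and 12.1% lower, so the share called higher is near that of all genes. Its median L was 0.37, against 0.28 in hag1 and -0.57 in ada2b, and no member is on it. In the jasmonate and wounding list 4 of 23 were called higher and 3 lower (all genes 7.86% higher and 12.1% lower), with a median L of -0.07 and TAT3 as its member.

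Transport, lipid and P450 genes gave 6 raised members with a median L of 0.81. PHT1;1, a high-affinity phosphate transporter of the root surface, was the most abundant member. It had 2157 and 2037 normalised counts in scs1-scs2a, 1362 and 1037 in hag1, 1230 and 1227 in ada2b, against 1110 and 1307 in Col-0. The lower scs1-scs2a library was 1.5 times the highest other library. PHT1;1 shares 40.5% of its 50-base stretches with other genes, among them PHT1;2, which itself had 14.5 and 6.58 in scs1-scs2a and 14.0 and 7.57 in Col-0. In the phosphate starvation list, 8 of 16 genes were called higher and 0 lower in scs1-scs2a than in Col-0 (all genes 7.86% higher and 12.1% lower). The member PHT1;1 is among the 8. The list's median L was 0.54 in scs1-scs2a, 1.56 in hag1 and 0.52 in ada2b, while PHT1;1 had -0.01 in hag1 and 0.02 in ada2b.

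CYP87A2, a cytochrome P450, had 250 and 274 normalised counts in scs1-scs2a, 165 and 110 in hag1, 167 and 127 in ada2b, against 139 and 120 in Col-0. CER4, the acyl-CoA reductase that makes the primary alcohols of wax, had 64.1 and 78.2 in scs1-scs2a, 49.8 and 24.4 in hag1, 29.0 and 35.1 in ada2b, against 48.7 and 34.3 in Col-0. Both were above the other 6 libraries in scs1-scs2a. In the suberin, wax and cutin list 5 of 21 genes were called higher and 2 lower (all genes 7.86% higher and 12.1% lower), with a median L of 0.20. UMAMIT4, of a family of amino acid exporters, had 73.5 and 107 in scs1-scs2a, 58.1 and 29.3 in hag1, 42.1 and 52.6 in ada2b, against 50.0 and 50.1 in Col-0.

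AT5G46890 and AT5G46900, neighbours on the same strand, encode lipid transfer proteins and had L values of 0.78 and 0.82 in scs1-scs2a. AT5G46900 had 315 and 275 normalised counts in scs1-scs2a, 267 and 167 in hag1, 186 and 188 in ada2b, against 199 and 135 in Col-0. AT5G46890 shares 26.8% of its 50-base stretches with other genes and AT5G46900 22.5%, mainly with each other, so their values are not independent. Over all raised members, 29 of 37 had no 50-base stretch in another gene and 5 had more than 10%.

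The other 10 raised members have no shared role, and AT5G02895 above is one of them. AT4G30670, the lipoprotein, had 757 and 833 normalised counts in scs1-scs2a, 595 and 468 in hag1, 522 and 503 in ada2b, against 384 and 449 in Col-0, and it stood above Col-0 in every mutant library. AT1G65486, of unknown function, had 218 and 323 in scs1-scs2a, 182 and 157 in hag1, 159 and 141 in ada2b, against 152 and 128 in Col-0. AT3G06145, a RING zinc finger protein, had 368 and 379 in scs1-scs2a, 185 and 188 in hag1, 284 and 213 in ada2b, against 179 and 230 in Col-0. For these 3 genes scs1-scs2a was above all other libraries. AT3G19430, related to late embryogenesis abundant proteins, had 136 and 227 in scs1-scs2a, 164 and 76.2 in hag1, 71.1 and 108 in ada2b, against 94.5 and 89.7 in Col-0, so hag1 replicate 1 overlapped. The thioredoxin AT5G18600, the protease ULP1B, the serpin CCP3, and AT5G14330 and AT2G18690 of unknown function had L values from 0.71 to 0.83.

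The 7 lowered members had L values from -0.91 to -0.73 in scs1-scs2a with a median of -0.78, and medians of -0.08 in hag1 and -0.29 in ada2b. Both scs1-scs2a libraries were below all 6 others for all 7, a pattern found for 3.85% of the 25459 genes tested. Of the 7, 7 were called lower than in Col-0 (12.1% of all genes), 6 lower than in hag1 (14.9%), 4 lower than in ada2b (14.9%), and 4 in all 3 (0.338%). The rule used these contrasts and favours the pattern across libraries, and nothing is read from the counts. In ada2b against Col-0, 3 of the 7 were also called, OZF2 and AT4G29310 lower and AT2G19390 higher.

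AT2G19390, a large protein with serine and arginine repeats, had 317 and 288 normalised counts in scs1-scs2a, 513 and 478 in hag1, 660 and 647 in ada2b, against 549 and 503 in Col-0. Its level was thus lowest in scs1-scs2a and highest in ada2b. CYP81D11, a cytochrome P450 induced by jasmonate and foreign chemicals, had 396 and 379 in scs1-scs2a, 558 and 570 in hag1, 917 and 729 in ada2b, against 563 and 737 in Col-0. It was the only lowered member called in all 3 scs1-scs2a contrasts and in neither hag1 nor ada2b against Col-0.

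OZF2, a CCCH zinc finger protein, had 343 and 313 normalised counts in scs1-scs2a, 430 and 554 in hag1, 433 and 450 in ada2b, against 533 and 603 in Col-0. AT4G29310, of the DUF1005 family, had 280 and 255 in scs1-scs2a, 430 and 439 in hag1, 324 and 380 in ada2b, against 437 and 480 in Col-0. In both, ada2b lay between scs1-scs2a and Col-0. BGLU17, a beta-glucosidase, had 31.6 and 30.5 in scs1-scs2a, 72.7 and 42.0 in hag1, 46.1 and 50.6 in ada2b, against 66.1 and 52.5 in Col-0. AT1G32583, annotated as a tapetum determinant protein, had 34.5 and 34.3 in scs1-scs2a, 65.7 and 63.7 in hag1, 44.1 and 42.8 in ada2b, against 56.6 and 58.7 in Col-0. The scs1-scs2a pair of both genes agreed closely, and their ada2b libraries also lay between scs1-scs2a and Col-0. L in ada2b was -0.29 for BGLU17 and -0.3997 for AT1G32583, the latter just inside the window. AT5G26270, of unknown function, had 92.8 and 101 in scs1-scs2a, 182 and 148 in hag1, 157 and 117 in ada2b, against 150 and 178 in Col-0. AT4G29310 shares 11.3% and AT5G26270 11.9% of their bases with a non-coding RNA on the opposite strand.

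The members are an excerpt of a continuous range. Just inside the threshold were AT2G39110 at 0.70, AT3G07195 at 0.70 and ULP1B at 0.71 in scs1-scs2a. Just outside, at unrounded values below 0.7, were the proton pump HA7 at 0.70, RHS13, annotated as root hair specific 13, at 0.69 and the glycosyl hydrolase AT3G47040 at 0.69. RHS13, with 457 and 536 normalised counts in scs1-scs2a, 365 and 211 in hag1, 389 and 330 in ada2b, against 271 and 341 in Col-0, was above all other libraries in scs1-scs2a. On the lower side AT1G32583 at -0.73, CYP81D11 and AT5G26270 at -0.75 were just inside, and the B-box factor BBX27 at an unrounded value above -0.7, AT5G57340 at -0.69 and AT3G59120 at -0.64 just outside.

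Membership depended on single libraries. Without scs1-scs2a replicate 1, 57 genes met the rule as raised, of which 31 were members with all libraries, and when hag1 replicate 2 was left out there were 25, all of them members. Without Col-0 replicate 1, 16 of the 37 members stayed, and without Col-0 replicate 2, 23 stayed. Single L values also moved. Without scs1-scs2a replicate 2, L was 0.44 for RSL4 (0.74 with all libraries), 0.54 for UMAMIT4 (0.84), 0.56 for AT3G19430 (0.97) and 0.52 for AT4G20000 (0.90). Without scs1-scs2a replicate 1, L of NUDT6 was 0.64 in place of 1.13. Raised members kept whichever of the 8 libraries was left out were CYP87A2, AT5G18470 and AT5G02895, and the lowered one was AT2G19390.

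**Figure D5:**
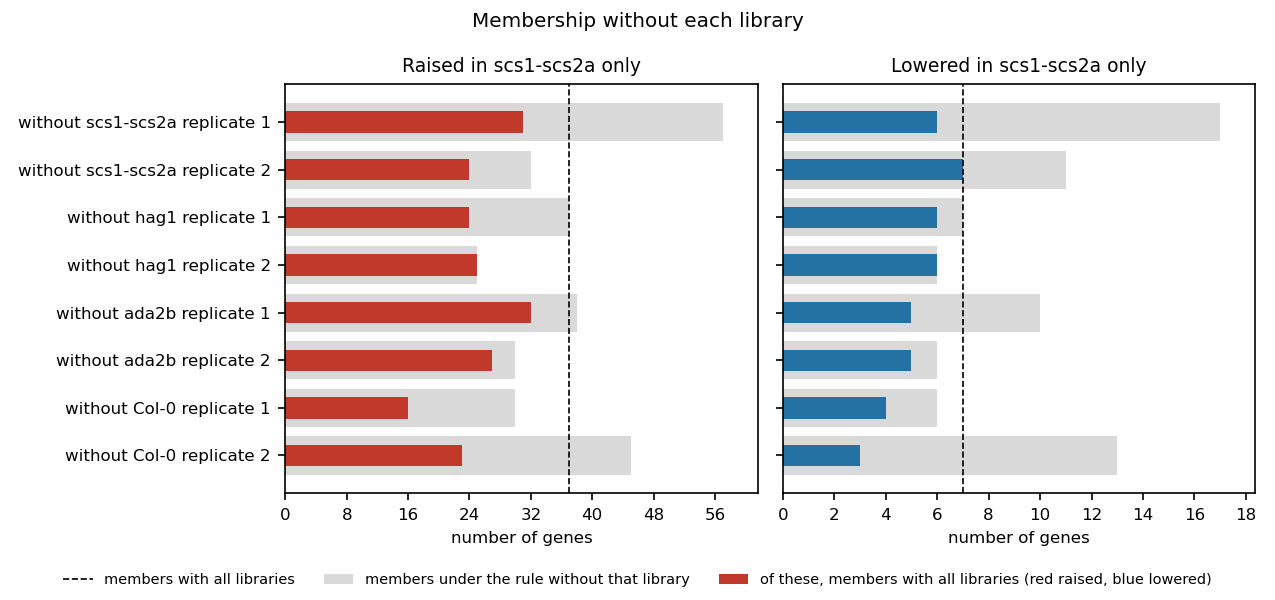
Grey bars count the genes that meet the rule when 1 library is left out, and coloured bars those of them that are members with all libraries (dashed line, 37 raised and 7 lowered). Raised counts run from 25 to 57 and lowered counts from 6 to 17, and the fewest members stay without Col-0 replicate 1 on the raised side (16) and Col-0 replicate 2 on the lowered side (3).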

How the data were processed

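Single-end reads of 50 bases came from total RNA of seedlings. The authors deposited 1 normalised count signal per gene and library, not whole numbers, so no count model was run. HISAT2, edgeR and TAIR10 are named, without versions, per the submitters' processing notes. How reads were counted and filtered, and whether by strand, was not given in the sources used here. Totals were even across libraries, and their number per genotype, 2, limits the precision.

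The rule was applied to the deposited values. Calls came from limma 3.58.1 (R 4.3.3) with a variance trend on log2(value + 1), genotype as the only term over 8 libraries, for the 25459 genes that reached 1 in at least 2 libraries; the fit was tested on simulated data. This scale understates changes of low genes. Names, starts and sequences came from RefSeq's TAIR10.1, which all 32548 identifiers matched (Python 3.11.15). No deposited column went unused.

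The members, the 24 lists and the tests were chosen with earlier results of these data known. Of 434 names on the lists, 413 matched a gene by symbol or synonym, which can pick a different gene with the same name. Genes were named by size of L, level, closeness to the threshold, list, neighbourhood and family. Role groups, root hair names and their element, and RSL4, RSL2, RHD6, PERK13, AT3G49960, PP2-A8, UMAMIT4 and the remaining members named were chosen after their values were seen. Alternatives were other pseudocounts, filters, level minimums, thresholds, windows, scaling, a replicate block, no trend, fits of 2 genotypes, and leaving out each library.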

Additional observations from a re-analysis of the deposited data

How the results depend on the processing

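The 37 raised members became 58 with a level minimum of 20, 6 with a fold threshold of 1 and 14 with a window of 0.25, and the 7 lowered became 0 under both of the last. Leaving out 1 library gave 25 to 57 raised and 6 to 17 lowered members. Pseudocounts of 0.1 and 10, a level minimum of 100 and median-ratio scaling kept both counts within 1.5-fold, but not all members stayed. Of the 37 raised and 7 lowered, 33 and 6 stayed with a pseudocount of 0.1, and 28 and 6 with 10. With a level minimum of 100, 25 and 5 stayed, and with median-ratio scaling 30 and 4. Genes called between scs1-scs2a and Col-0 (5079) fell to 2798 with no filter on low values and 2757 without the variance trend, and ranged from 1683 to 5161 with 1 library left out. Against hag1 (7652) the range was 4339 to 7335. Against ada2b (7567) it was 3974 to 7679, with 5001 without the trend. The hag1 and ada2b contrasts with Col-0 (11279 and 12251) stayed within 1.5-fold throughout. Raised members called in all 3 scs1-scs2a contrasts (14) numbered 2 with no filter, 5 without the trend and 5 to 21 with 1 library left out. Lowered ones (4) numbered 1, 2 and 1 to 4. The cause was not tested. Of 308 values of L for single members under alternatives, 306 kept their sign and moved by less than the spread between libraries (1 SD), which is wide for some members. AT1G32583 moved past it, to -0.61 with a pseudocount of 10. With 2 libraries per genotype, leaving 1 out shifts that genotype's mean by less than the SD of its pair. For those settings a move within 1 SD was nearly fixed in advance and does not show that L was stable. TAT3 (3.48) ranged from -0.38 without scs1-scs2a replicate 1, a reversal, to 5.03 without Col-0 replicate 2. Where 1 library is left out, its genotype's other library is assumed to vary like the rest.

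Deviations of same-numbered libraries correlated at -0.12 to 0.20 over 18266 genes, the highest between hag1 and ada2b. These values cannot show whether same-numbered libraries were grown or prepared together. Replicate number was not in the main fit. With a replicate block 4502, 7132 and 6939 genes were called in scs1-scs2a against Col-0, hag1 and ada2b, 10815 and 11823 in hag1 and ada2b against Col-0, and 13 raised and 4 lowered members in all 3 scs1-scs2a contrasts. With 2 libraries per genotype and no count of reads, differences within the spread between libraries were not detectable at this depth, which does not show that they are absent.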
